A study of Rattus norvegicus with 6 samples.

Results

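The genes described here are 10 rat genes of cystine uptake, glutathione metabolism and the NRF2 response: Slc7a11, Chac1, Gclc, Gclm, Gss, Gsr, Gpx4, Nqo1, Txnrd1 and Nfe2l2. They are 10 of the 14217 genes that the array annotation names, and they were read by 13 of 31042 tested probe sets, every one annotated with a single symbol among the 10. The set was chosen from results of this same comparison, in which the differences of Slc7a11 and Chac1 were already known. The members' own differences are therefore a description and carry no test. Calls and p-values given for members below are part of that description and are not evidence about them. LN4D6 cells, a rat mammary tumour line, were measured as 3 CREB3L1 arrays and 3 untransfected arrays. The CREB3L1 cells are LN4D6 cells transfected with CREB3L1, a transcription factor of the endoplasmic reticulum membrane, and the untransfected cells are the same line without it. The labels name no cells given a vector alone, so CREB3L1 and the transfection itself cannot be told apart. The sources used here do not give whether the CREB3L1 cells were a pool or a single clone, or when they were harvested. The labels do not tell whether each array had a culture of its own, so p-values reflect only array-to-array spread, which may be technical.

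Cells import cystine in exchange for glutamate through a transporter whose light chain is Slc7a11, and reduce it to cysteine, the scarce building block of glutathione. Glutamate-cysteine ligase, made of a catalytic subunit (Gclc) and a modifier subunit (Gclm), joins glutamate to cysteine, and glutathione synthetase (Gss) adds glycine. The transcription factor NRF2, encoded by Nfe2l2, is held down by KEAP1 and, once released, drives antioxidant genes through antioxidant response elements. Slc7a11 also answers to ATF4, the factor of the amino acid response, and Chac1 is best known as an ATF4 target.

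Upstream sequence from RefSeq (rat assembly GRCr8) is shown for Chac1 and Gclm, picked as examples that hold different elements, with their levels already known. Chac1 belongs to the pair of members whose levels were far lower on all CREB3L1 arrays. Gclm is a textbook NRF2 target whose level moved little. Whether these elements bear on the levels was not tested. Each run is the 250 bases before the annotated start on the gene's own strand. Capitals mark the only match in each to the motifs searched. Chac1 lies on chromosome 3 and its run is chr3:126795881-126796130 on the plus strand. The Gclm run is chr2:213031885-213032134, also on the plus strand.

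Chac1: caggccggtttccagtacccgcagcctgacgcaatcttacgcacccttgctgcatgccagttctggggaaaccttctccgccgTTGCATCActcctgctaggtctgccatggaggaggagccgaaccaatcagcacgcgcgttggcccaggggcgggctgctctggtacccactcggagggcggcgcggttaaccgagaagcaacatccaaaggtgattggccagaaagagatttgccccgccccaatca

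Gclm: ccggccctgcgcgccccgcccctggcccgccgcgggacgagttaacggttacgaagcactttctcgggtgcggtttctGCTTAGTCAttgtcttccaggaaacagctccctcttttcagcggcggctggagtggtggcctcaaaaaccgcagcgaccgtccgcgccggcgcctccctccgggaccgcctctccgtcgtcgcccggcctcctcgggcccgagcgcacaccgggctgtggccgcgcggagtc

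Short motifs were searched on both strands in windows from 250 bases before to 50 bases after each annotated start. The ATF4 composite site was spelled TGATGNAA, the core of the antioxidant response element TGACNNNGC and the core of the cAMP response element TGACGT, and the last can overlap the antioxidant core. Of the 10 genes, 9 had a window, 12 windows in all. Chac1 alone held TGATGNAA, as TTGCATCA read on the gene's strand, its first base at -167. That motif occurs in 3.98% of all 33469 rat windows. TGACNNNGC occurs in 12.1% of all windows and was found in Gclm at -172, in one of the Txnrd1 windows at -78 and in Nfe2l2 at 39 bases after the start. TGACGT, in 7.94% of all windows, was found only in Gpx4 among these genes. Neither ATF4 nor NRF2 letters were found in the Slc7a11 window, which says only that these letters are absent from it. The upstream bases used for Slc7a11 (chr2:136668265-136668514, minus strand) lie inside its annotated gene, which ends at 136668560. Sequence before that end was therefore not searched. The upstream bases of Nfe2l2 and Txnrd1 also lie inside their annotated genes, and those of Gclc, Gss and Gpx4 do so in part. A match is a string of letters and not evidence of binding.

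All values below are the authors' RMA expression values, taken as log2, and differences are CREB3L1 minus untransfected with a standard error from limma. Levels of different probe sets are not set against each other. Values under 5 on the log2 scale were treated as background, since no detection calls were given. All 10 genes had a probe set above it in both groups, as did 12 of the 13 probe sets. In bulk RNA, fewer cells expressing a gene and less RNA per cell cannot be told apart.

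One array bears on several members. CREB3L1 replicate 3 correlated with the other arrays at 0.984 to 0.989 across probe sets, against 0.996 to 0.999 among the other 5. On it the Gapdh probe set at the 5' end of the transcript read 10.90, against 15.73 to 15.86 on the other arrays, while the 3' probe set read 15.67, against 15.58 to 15.70. The beta-actin 5' probe set read 7.71 there and 12.01 to 13.20 elsewhere. The spiked-in bacterial and phage controls bioB, bioC, bioD and cre lay 1.01 to 3.05 above their median on the other arrays. Values without this array are given for the member probe sets above background and for other genes whose call, sign or size it moved. Among the markers of the labelled tissue, the keratins Krt5 and Krt14 averaged 14.81 ± 0.37 and 15.08 ± 0.14 in CREB3L1 cells and 14.67 ± 0.11 and 15.25 ± 0.13 in untransfected cells (SD, n = 3 each), and all 3 measured basal or myoepithelial markers were above background. Of 6 epithelial markers only Krt8 was above background (13.10 to 13.25 in CREB3L1 cells and 13.16 to 13.28 in untransfected cells). Krt18, Krt19, Krt7 and the defining markers Epcam (2.65 to 2.77) and Cdh1 (3.0006 to 3.17) were below it on all arrays. All measured endothelial, immune and adipocyte markers were below background in both groups, as were 5 of 6 fibroblast markers, the exception being Col3a1 (14.61 to 14.88 in CREB3L1 cells and 14.45 to 14.57 in untransfected cells).

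**Figure D1:**
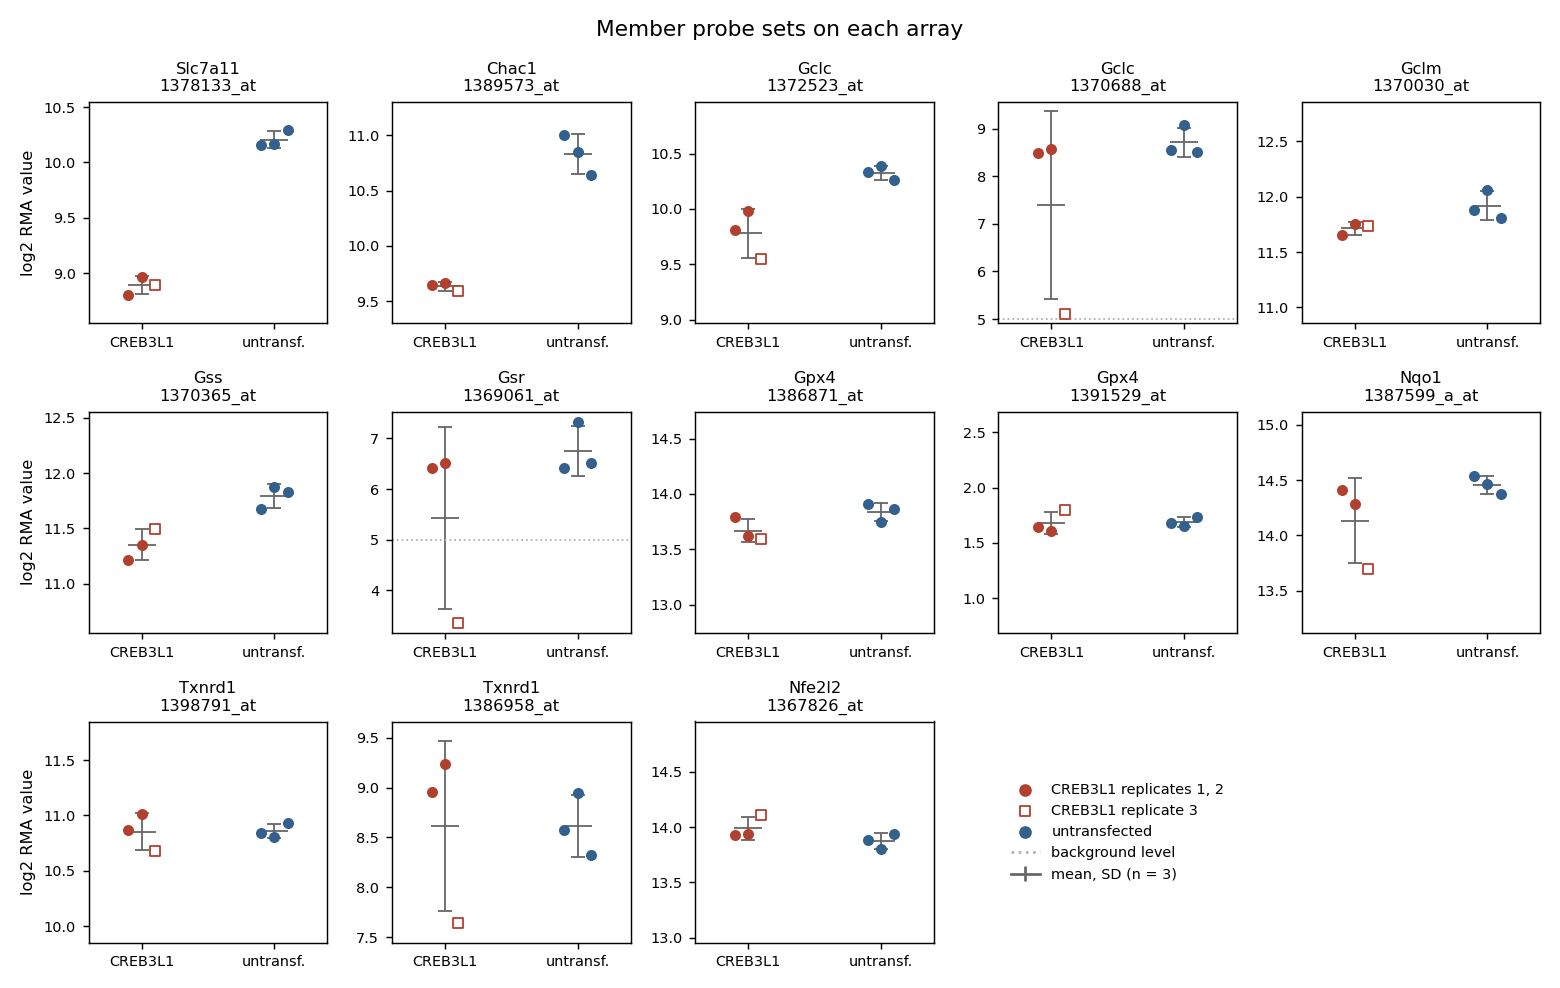
Log2 RMA values of the 13 probe sets of the 10 genes, 1 panel each, for the 3 CREB3L1 arrays (left, the open square is replicate 3) and the 3 untransfected arrays (right), with mean and SD as bars and a dotted line at the background level of 5 where it falls in range. Slc7a11 and Chac1 separate the groups by more than 1 unit, while in 1 Gclc panel and in the Gsr panel only replicate 3 sits low, at 5.11 and 3.36. Vertical ranges differ between panels.

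The mRNA of the cystine transporter was lower in the CREB3L1 cells. Slc7a11 (chr2:136532912-136668560) read 8.80, 8.97 and 8.89 on the CREB3L1 arrays, against 10.16, 10.17 and 10.29 on the untransfected arrays. The groups lay far apart and each was tight, with SDs of 0.08 and 0.07. The difference was -1.32 ± 0.06, so that CREB3L1 cells held 40.1% of the untransfected level, and it was -1.32 ± 0.07 without CREB3L1 replicate 3. The difference was as large without the array that stood apart.

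Chac1, a cyclotransferase that breaks glutathione down inside the cell, had a drop of nearly the same size. It read 9.64, 9.67 and 9.59 in CREB3L1 cells, against 10.9999, 10.85 and 10.64 in untransfected cells. Here the CREB3L1 arrays were the tighter group, with an SD of 0.04 against 0.18. The difference was -1.19 ± 0.10, or 43.7% of the untransfected level, and -1.17 ± 0.11 without replicate 3. The mRNAs of an importer of the precursor and of an enzyme that degrades the product were thus both lower in the same cells.

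The mRNAs of the enzymes that build glutathione had smaller differences, apart from 1 Gclc probe set with a low value on 1 array. Gclc was read by 2 probe sets. The first, 1372523_at, gave 9.81, 9.99 and 9.55 on the CREB3L1 arrays and 10.33, 10.38 and 10.26 on the untransfected arrays. All CREB3L1 values lay below all untransfected ones, and the difference was -0.55 ± 0.12, or -0.43 ± 0.07 without replicate 3. The second Gclc probe set, 1370688_at, gave 8.49, 8.57 and 5.11 on the CREB3L1 arrays, against 8.56, 9.07 and 8.52 on the untransfected arrays. Its groups overlapped apart from replicate 3. The difference of -1.33 ± 0.9955 became -0.19 ± 0.18 without that array, so the larger figure belongs to 1 array. Their mean, -0.94, mixes both patterns and is not used here.

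Gss, which adds the last residue of glutathione, read 11.22, 11.35 and 11.50 in CREB3L1 cells and 11.67, 11.87 and 11.83 in untransfected cells. Replicate 3 was here the highest of the CREB3L1 arrays and still lay below the lowest untransfected array. The difference was -0.44 ± 0.09 with all arrays and -0.51 ± 0.08 without replicate 3. Gclm, the modifier subunit that lowers the feedback of glutathione on the ligase, read 11.65, 11.76 and 11.74 in CREB3L1 cells and 11.88, 12.06 and 11.81 in untransfected cells. The groups did not overlap, but the gap between their nearest arrays was small beside the spread in untransfected cells. Its difference was -0.20 ± 0.08, the smallest of the 3 synthesis genes, and -0.21 ± 0.09 without replicate 3.

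Among the members, Gsr and Gpx4, which recycle and use glutathione, gave no separation of the groups. Gsr, the reductase that restores oxidised glutathione, read 6.42, 6.52 and 3.36 on the CREB3L1 arrays, against 6.42, 7.33 and 6.52 on the untransfected arrays. CREB3L1 replicates 1 and 2 lay within the untransfected range, and only replicate 3 was below background. The difference of -1.32 ± 0.93 was -0.28 ± 0.29 without it. In Gsr and in 1370688_at of Gclc, untransfected replicate 2 was the highest array, as it was in the beta-actin 5' probe set among the untransfected arrays (13.08, against 12.34 and 12.01). Gpx4, which reduces lipid peroxides in membranes and is the enzyme that restrains ferroptosis, read 13.79, 13.62 and 13.60 in CREB3L1 cells and 13.91, 13.75 and 13.86 in untransfected cells. These ranges overlapped, with a difference of -0.17 ± 0.07, or -0.14 ± 0.07 without replicate 3. The other Gpx4 probe set lay between 1.60 and 1.79 on all 6 arrays, below background, and says nothing about the gene.

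**Figure D2:**
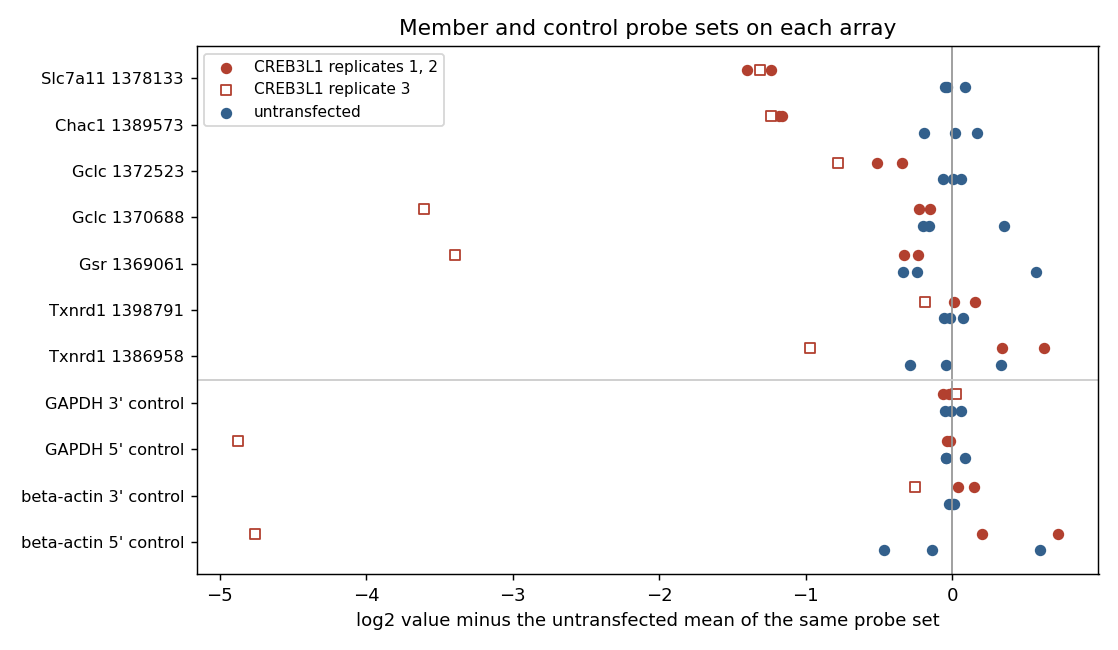
Log2 values of member probe sets and of the Gapdh and beta-actin controls (3' and 5' ends) on each array, as the distance from the untransfected mean of the same probe set. CREB3L1 replicate 3 (open square) lies at -4.88 and -4.76 in the 5' controls, at -3.61 and -3.39 in Gclc 1370688_at and Gsr, and beside the other CREB3L1 arrays in Slc7a11 and Chac1.

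The values of Nqo1 and Txnrd1 overlapped between the groups. Nqo1, the quinone reductase often used as a readout of NRF2, read 14.41, 14.29 and 13.70 in CREB3L1 cells and 14.54, 14.46 and 14.38 in untransfected cells. Replicate 3 was again the low array, and the difference of -0.33 ± 0.20 was -0.11 ± 0.07 without it. Txnrd1, the cytosolic thioredoxin reductase, was read by 2 probe sets. Its 1398791_at read 10.87, 11.01 and 10.68 in CREB3L1 cells and 10.84, 10.81 and 10.93 in untransfected cells, a difference of -0.01 ± 0.09. Its 1386958_at read 8.95, 9.24 and 7.64 in CREB3L1 cells and 8.57, 8.94 and 8.32 in untransfected cells, a difference of 0.00 ± 0.45. In both the CREB3L1 range enclosed the untransfected one, and without replicate 3 the differences were 0.08 ± 0.06 and 0.48 ± 0.20. Their sign also turned with median centring (0.00 and 0.01) and with quantile normalisation (0.02 and 0.09), so no direction is given for Txnrd1.

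Nfe2l2, the gene of NRF2 itself, read 13.93, 13.94 and 14.11 in CREB3L1 cells and 13.88, 13.80 and 13.94 in untransfected cells. The ranges overlapped, and the difference was 0.12 ± 0.07, or 0.06 ± 0.05 without replicate 3. NRF2 is controlled largely through the stability of its protein, which arrays do not measure.

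**Figure D3:**
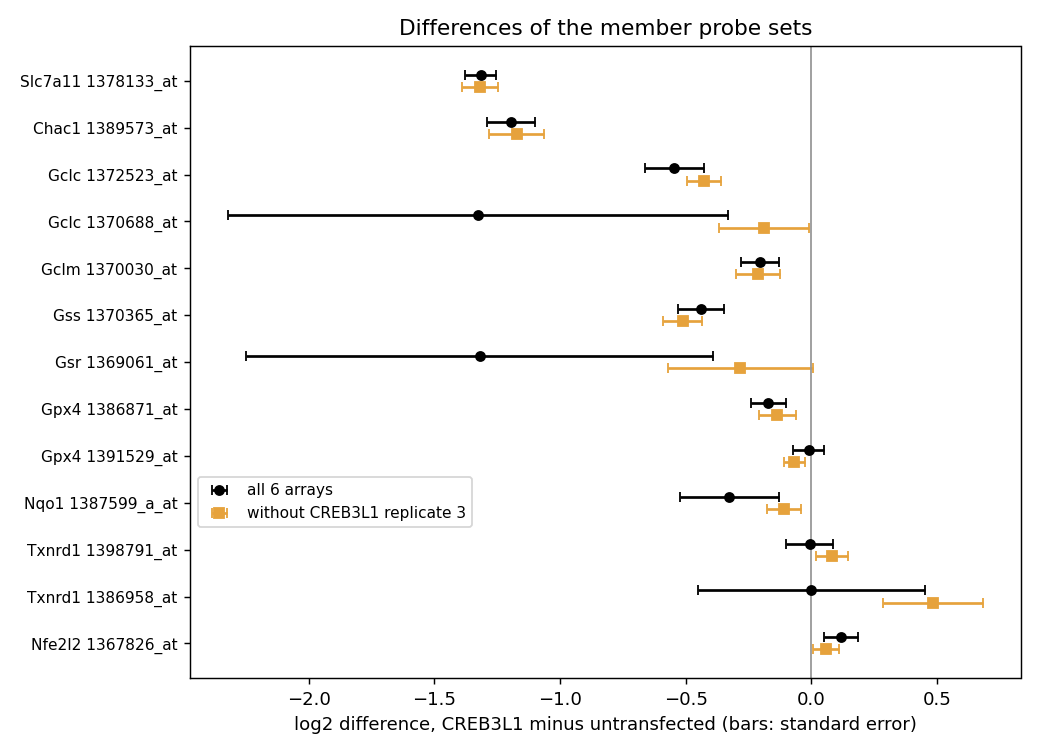
Log2 difference, CREB3L1 minus untransfected, of each of the 13 probe sets with its standard error, for all 6 arrays (circles) and without CREB3L1 replicate 3 (squares). Slc7a11 and Chac1 lie between -1.32 and -1.17 either way, while Gclc 1370688_at and Gsr lie at -0.19 and -0.28 without that array, and at -1.33 and -1.32 with it.

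Counted over the probe sets, all CREB3L1 values lay below all untransfected values in 5 of the 13 (Slc7a11, Chac1, 1 of Gclc, Gclm and Gss), and above them in 0. Over all tested probe sets these shares were 7.75% and 6.52%. At an adjusted p below 0.05 from limma, 2 of the 13, Slc7a11 and Chac1, were called lower and 0 higher, against 0.963% and 0.425% of all probe sets. The call of Chac1 was lost in an ordinary test without moderation (adjusted p = 0.0773), without CREB3L1 replicate 1 (0.0536) or 2 (0.0565) and without untransfected replicate 2 (0.0642). At an unadjusted p below 0.05, 5 of the 10 genes were lower and 0 higher, against 7.99% and 6.05% of all genes. Without CREB3L1 replicate 3, 4 of the 13 were called lower, with Gclc 1372523_at and Gss added, and 0 higher, against 2.44% and 1.54%. Since the members were chosen with this comparison known, nothing is read from these counts. The median difference of the 10 genes was -0.38, beside -0.01 over all genes, and -0.25 without replicate 3, beside 0.00.

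The genes whose profile over the 6 arrays lay nearest to that of Slc7a11, out of 7651 genes with a mean above background, were Igf2r, Dsc2, Rhebl1, Ldhb and Slc31a2. Likeness was the Euclidean distance between profiles centred on the untransfected mean, which ran from 0.22 for Igf2r to 0.35 for Slc31a2. Their differences ran from -1.30 for Igf2r to -1.15 for Slc31a2. Rhebl1 read 4.66 to 4.85 on the CREB3L1 arrays, below background, so its drop is given only as at least 1.94-fold. Chac1 was the nearest of the members, at a distance of 0.43 and rank 9, and Gclc followed at rank 318. Profiles centred in this way lie close where the group differences are alike. The drops of Slc7a11 and Chac1 were known when the members were chosen, so the rank of Chac1 adds nothing to them. These ranks are a description over 6 arrays of 2 groups.

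Wider pathway genes were read from 9 lists of 178 symbols outside the members, of which 162 were measured. The lists were drawn up with earlier results of these data known, so their counts beside those of all genes are a description. With all arrays 4 fell and 2 rose, which is 2.47% and 1.23% of those measured, beside 1.52% and 0.577% of all genes read by 1 probe set each. Without CREB3L1 replicate 3, 19 fell and 7 rose, or 11.7% and 4.32%, beside 3.70% and 2.02% of all genes. At an unadjusted p below 0.05 in limma with all arrays, 40 were lower and 9 higher, beside 7.99% and 6.05% of all genes. The thioredoxin list held 6 lower and 0 higher, and cystine supply and other NRF2 targets 4 and 2 each. Ferroptosis and iron held 3 and 3, and other glutathione genes 2 and 2. The tests below are from limma over all 31042 probe sets with Benjamini-Hochberg adjustment.

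**Figure D4:**
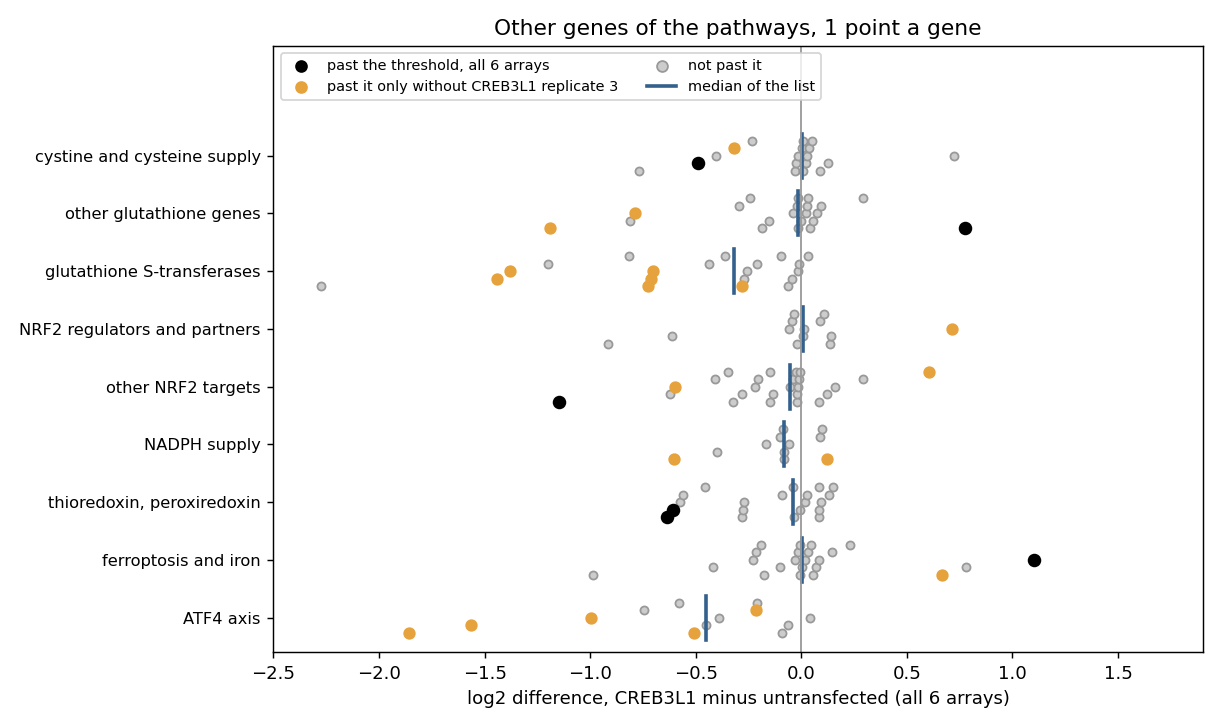
Log2 difference, CREB3L1 minus untransfected over all 6 arrays, of 1 probe set for each listed gene outside the members, by list, with the median of each list as a bar. Black points passed the threshold with all arrays and orange points passed it only without CREB3L1 replicate 3. Of the lists, glutathione S-transferases and the ATF4 axis have medians of -0.32 and -0.45, and the other medians lie between -0.08 and 0.01.

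Among 18 measured genes of cystine and cysteine supply, 1 fell and 0 rose. Slc1a4, a transporter of small neutral amino acids such as serine and alanine, read 9.56, 9.58 and 9.48 in CREB3L1 cells and 9.9976, 10.03 and 10.06 in untransfected cells. It fell by 0.49 ± 0.04 (adjusted p = 0.00947), and the call was lost when a trend of variance on mean was fitted (0.117) and without CREB3L1 replicate 1 or any 1 untransfected array (0.0519 to 0.0732). Slc3a2, the heavy chain that carries Slc7a11 to the cell surface, gave 12.94 ± 0.15 in CREB3L1 cells and 13.34 ± 0.10 in untransfected cells (SD, n = 3 each), which did not pass (adjusted p = 0.169, and 0.12 without CREB3L1 replicate 3). Cth, which makes cysteine from cystathionine, lay the other way, at 9.51 ± 0.06 in CREB3L1 cells and 8.78 ± 0.29 in untransfected cells (adjusted p = 0.136). Slc3a2 and Cth were picked for their roles after their values were seen. Cars1, the cysteinyl-tRNA synthetase, fell only in the fit without replicate 3 (-0.38 ± 0.06, adjusted p = 0.0360) and was likewise singled out afterwards.

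Of 21 other genes of glutathione synthesis, turnover and use, 1 rose and 0 fell. Gpx8, a peroxidase of the endoplasmic reticulum membrane, read 12.99, 12.95 and 12.92 in CREB3L1 cells and 12.27, 12.21 and 12.05 in untransfected cells. It rose by 0.78 ± 0.07, or 1.71-fold (adjusted p = 0.0105), and lost the call without CREB3L1 replicate 1 (0.0639), CREB3L1 replicate 2 (0.0697) or untransfected replicate 2 (0.0662). Without CREB3L1 replicate 3, Oplah, which turns 5-oxoproline back into glutamate, and Lancl1, a glutathione-binding protein, also passed, with differences of -0.89 ± 0.11 and -0.48 ± 0.05 (adjusted p = 0.0198 and 0.0160). This pair was singled out after its values were seen.

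The glutathione S-transferases, which couple glutathione to electrophiles, leaned one way, in a list drawn up with earlier results of these data known. Of 20 measured genes, 19 had a difference below 0, as did 7678 of all 14217 genes. The median was -0.32, beside -0.01 over all genes, and -0.40 without replicate 3. Of the 20, 8 had both group means below background. None passed with all arrays in limma. At an unadjusted p below 0.05 there were 13 lower and 0 higher, beside 7.99% and 6.05% of all genes. Of the 13, Gsta4, Gstm2, Gstm7 and Gstt1 had both group means below background. With array weights 8 passed as lower and 0 as higher, beside 4.68% of all genes called lower. The same weights gave 22 lower and 5 higher among the 162 genes of all lists. The thioredoxin list gave 4 lower of 20 and the ATF4 axis 3 of 13, with 0 higher in each. In 10 of the 12 genes above background in at least 1 group, all CREB3L1 values lay below all untransfected values, beside 16.5% of all such genes. In the ATF4 axis this held for 6 of 13 genes, and the reverse for 0. The median of these 12 was -0.71, beside 0.01 over all such genes. Without CREB3L1 replicate 3, 6 fell and 0 rose, beside 3.70% and 2.02% of all genes. Several of these genes have near-identical copies, so a probe set may read more than 1 of them.

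Gsta1 read 10.61, 10.50 and 10.09 in CREB3L1 cells and 11.15, 11.19 and 10.99 in untransfected cells, a difference of -0.71 ± 0.15 (adjusted p = 0.143, and 0.0280 without replicate 3). Gstm5 read 13.02, 12.94 and 12.49 in CREB3L1 cells and 13.62, 13.50 and 13.44 in untransfected cells, a difference of -0.70 ± 0.15 (adjusted p = 0.151, and 0.0201 without replicate 3). In both, replicate 3 was the lowest array and widened the spread. The other genes of the 6, named after their values were seen, were Mgst3 (-0.92 ± 0.09, adjusted p = 0.0110 without replicate 3), Gstm1 (-0.98 ± 0.13, 0.0264), Gstt2 (-0.88 ± 0.14, 0.0425) and Mgst1 (-0.36 ± 0.06, 0.0388). Mgst1 and Mgst3 are membrane-bound enzymes, while the others are soluble. Gstp1, the pi-class enzyme, lay between 14.91 and 15.19 in CREB3L1 cells and between 15.26 and 15.43 in untransfected cells, a difference of -0.26 ± 0.09 that did not pass (adjusted p = 0.419) and was -0.17 ± 0.06 without replicate 3 (adjusted p = 0.261). Gsto1 gave 0.03 ± 0.12 with all arrays and -0.11 ± 0.04 without replicate 3 (adjusted p = 0.379), so its sign turned. Gstp1 and Gsto1 were picked after their values were seen.

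**Figure D5:**
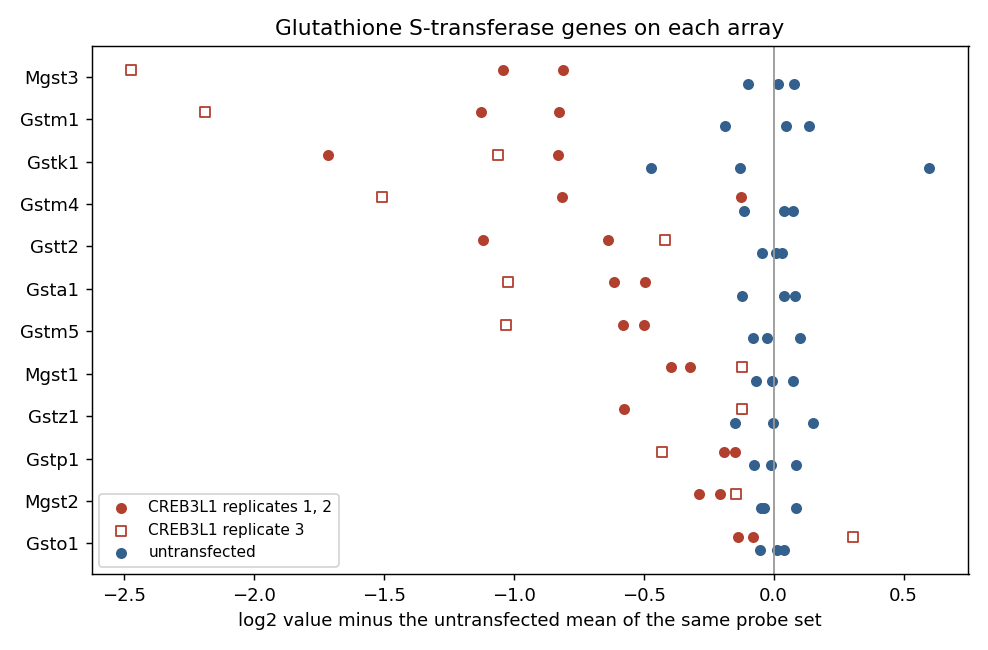
Glutathione S-transferase genes above background in at least 1 group, 1 row each, as log2 value on each array minus the untransfected mean of the same probe set. CREB3L1 arrays lie left of all untransfected arrays in 10 of the 12 rows, the exceptions being Gstz1 and Gsto1, and replicate 3 (open square) is the lowest array of Mgst3, Gstm1, Gstm4, Gsta1, Gstm5 and Gstp1.

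Of 25 other measured NRF2 targets 1 fell and 0 rose. Hmox1, which degrades haem, read 9.96, 9.86 and 10.19 in CREB3L1 cells and 11.10, 11.13 and 11.22 in untransfected cells. It fell by 1.15 ± 0.09, a 2.21-fold drop (adjusted p = 0.00891), with a difference of -1.24 ± 0.05 without CREB3L1 replicate 3 (adjusted p = 0.00139). The call was lost narrowly without CREB3L1 replicate 1 or any 1 untransfected array (0.0537 to 0.0642). The median of the list was -0.05. In the fit without replicate 3, Ptgr1, a prostaglandin reductase, fell too (-0.52 ± 0.06, adjusted p = 0.0204), while Cbr3, a carbonyl reductase, rose (0.78 ± 0.07, adjusted p = 0.00914). Ptgr1 and Cbr3 were named after their values were seen.

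Regulators and partners of NRF2 gave 0 rises and 0 falls among 13 measured genes in limma. At an unadjusted p below 0.05, 1 was higher and 0 lower, beside 6.05% and 7.99% of all genes. Mafk, a small MAF protein that pairs with NRF2 on DNA, read 9.88, 9.80 and 10.38 in CREB3L1 cells and 9.31, 9.27 and 9.34 in untransfected cells, a difference of 0.71 ± 0.16 (adjusted p = 0.161). Without replicate 3 it rose by 0.54 ± 0.04 (adjusted p = 0.00713). Sqstm1, an autophagy receptor that binds KEAP1, gave -0.61 ± 0.36 (adjusted p = 0.845) and -0.21 ± 0.10 without replicate 3. Keap1 read 8.12 to 8.26 in CREB3L1 cells and 8.15 to 8.21 in untransfected cells, a difference of 0.01 ± 0.05, or -0.03 ± 0.04 without replicate 3. Keap1 was picked for its role after its values were seen.

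In the thioredoxin and peroxiredoxin list 2 of 20 fell and 0 rose. Prdx4, the peroxiredoxin of the endoplasmic reticulum, read 12.31, 12.18 and 12.36 in CREB3L1 cells and 13.02, 12.88 and 12.86 in untransfected cells, a fall of 0.64 ± 0.07 (adjusted p = 0.0227). Cat, the peroxisomal catalase, read 11.90, 11.89 and 11.97 in CREB3L1 cells and 12.45, 12.47 and 12.66 in untransfected cells, a fall of 0.61 ± 0.07 (adjusted p = 0.0234). The groups stood apart in both. Without any 1 array other than CREB3L1 replicate 3 the adjusted p of Prdx4 was 0.0776 to 0.106, and Cat lost its call without CREB3L1 replicate 1 or 2 (0.110 and 0.115) or untransfected replicate 1 or 2 (0.0816 and 0.0958).

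Genes of NADPH supply, which feed both reductases, gave 0 rises and 0 falls among 11 in limma. At an unadjusted p below 0.05, 2 were lower and 0 higher, beside 7.99% and 6.05% of all genes. Mthfd2, a mitochondrial folate enzyme, had a difference of -0.60 ± 0.09 (adjusted p = 0.0652) and fell by 0.54 ± 0.09 without replicate 3 (adjusted p = 0.0483). In that fit Mthfd1, a cytosolic folate enzyme named after its values were seen, rose by 0.21 ± 0.04 (adjusted p = 0.0478). Tkt, the transketolase of the pentose phosphate pathway, had -0.40 ± 0.08 (adjusted p = 0.135, and 0.108 without replicate 3).

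Of 23 measured ferroptosis and iron genes 1 rose and 0 fell. Gch1, which starts the synthesis of tetrahydrobiopterin, read 5.38, 5.25 and 5.79 in CREB3L1 cells and 4.40, 4.40 and 4.31, below background, in untransfected cells. It was at least 1.38-fold higher (adjusted p = 0.0384), the call was lost without any 1 array other than CREB3L1 replicate 3 (0.0756 to 0.171), with median centring (0.0513), with quantile normalisation (0.0854) and for the mean of its probe sets (0.0537), and its other probe set was under background throughout. Tfrc, the transferrin receptor, named after its values were seen, rose only in the fit without replicate 3 (0.54 ± 0.07, adjusted p = 0.0228).

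The ATF4 axis had 12 of 13 differences below 0 and a median of -0.45, with 0 rises and 0 falls in limma. At an unadjusted p below 0.05, 6 were lower and 0 higher, beside 7.99% and 6.05% of all genes. Whether ATF4 bears on the levels of Slc7a11 or Chac1 was not tested. Without CREB3L1 replicate 3 the median was -0.30, and 10 of the 13 differences were below 0. Over all 14217 genes, 7678 differences were below 0 with all arrays and 7125 without it. In that fit there were 4 falls and 1 rise, beside 3.70% and 2.02% of all genes. Nupr1, Trib3 (-1.32 ± 0.06), Asns (-0.66 ± 0.09) and Sesn2 (-0.85 ± 0.12) fell, and Ppp1r15a rose (0.37 ± 0.06, adjusted p = 0.0484). With all arrays Ppp1r15a gave -0.22 ± 0.51, so its sign turned. Trib3, Asns and Sesn2 then gave -1.86 ± 0.47, -0.99 ± 0.30 and -0.51 ± 0.31, which did not pass (adjusted p = 0.216, 0.320 and 0.872). Atf4 itself gave -0.58 ± 0.18 (adjusted p = 0.328, and 0.0582 without replicate 3). All of these but Nupr1 were named after their values were seen. Nupr1, a stress-induced chromatin protein, gave -1.56 ± 0.27 (adjusted p = 0.0883, and 0.00279 without replicate 3), and Ddit3, the gene of CHOP, gave -0.75 ± 0.16 (adjusted p = 0.150, and 0.0578 without replicate 3).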

How the data were processed

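Per the submitters' processing notes, the authors made the values with RMA in Partek 6.6, and the deposited table was taken as log2 because it runs from 0.27 to 17.22. The sources used here give neither the probe-level settings nor the log base. Of 31099 probe sets, 57 controls were set aside. GEO's platform annotation, with symbols checked against RefSeq (GRCr8, 0 changed), gave 1 symbol to 20826, several to 436 and none to 9780. A gene outside the members was read from its probe set with the highest mean.

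Groups came from the label that states what was transfected, and replicates were numbered in deposit order. limma 3.58.1 in R 4.3.3 (group means, two-sided, no trend in eBayes, Benjamini-Hochberg over 31042 probe sets, threshold 0.05) was run on all 6 arrays and checked on simulated data. At most 10 values were equal between any pair of arrays. The number of arrays, 3 a group, limits the precision.

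The members and lists were chosen with earlier results of these data known. Named genes are all members, up to 4 genes past the threshold in each list or else the pair with the smallest p, and the 5 genes most like Slc7a11, and other listed genes are marked where named. A fold with 1 group mean below a log2 value of 5 is a bound against that level.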

Additional observations from a re-analysis of the deposited data

How the results depend on the processing

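Differences of Slc7a11, Chac1, Gclc, Gclm, Gss, Gsr, Nqo1, Nfe2l2 and the brighter Gpx4 probe set kept their sign in every alternative. Alternatives that changed only the variance estimate or the probe sets tested leave a difference as it is, so no sign could turn there. Where the groups did not overlap, leaving out 1 array could not turn it either. The size did move for Gsr, from -1.32 ± 0.93 to -0.28 ± 0.29 without CREB3L1 replicate 3. The members called lower numbered 1 to 4 of the 13 probe sets across the alternatives, 0 being called higher. With probe sets below background in both groups left out, they were 2 of 12. The 4 came with array weights and without CREB3L1 replicate 3, where 952 and 756 of all 31042 probe sets were called lower. In the ordinary test 1 member was called lower, and 65 of all probe sets. Nothing is read from these counts. Over all probe sets, 132 rose and 299 fell. With array weights these were 600 and 952, in an ordinary test without moderation 9 and 65, and with a mean-variance trend 79 rose. Leaving out 1 array gave 28 to 479 rises and 116 to 756 falls, the highest of each without CREB3L1 replicate 3. Of the listed genes outside the members, 2 rose and 4 fell. With array weights 5 rose and 22 fell, in the ordinary test 0 and 0, with median centring 1 rose, with quantile normalisation 1 rose, and when a gene's probe sets were averaged 1 rose and 7 fell. Leaving out 1 array gave 0 to 7 rises and 0 to 19 falls. Their 6 calls were all lost in the ordinary test. In that test Chac1 lost its call too (adjusted p = 0.0773) and Slc7a11 kept it (0.0296). Both were chosen with this comparison known, so whether a call of theirs was kept or lost is a description only. Chac1 also lost its call without CREB3L1 replicate 1 (0.0536), CREB3L1 replicate 2 (0.0565) or untransfected replicate 2 (0.0642). The cause of these changes was not tested. No paired analysis was possible because no replicate number in the labels is common to both groups.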
